A study of Mus musculus with 6 samples.

Results

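The mRNAs described here are those of the complex I subunits that mitochondrial DNA (mtDNA) encodes on its heavy-strand transcript. They were taken by name as the rows mt-Nd1, mt-Nd2, mt-Nd3, mt-Nd4l_4 and mt-Nd5 of the raw count tables, which is 5 of 35 mtDNA values and 5 of 39177 genes counted in all. All 5 rows held counts in every library and all 5 passed the filter on low counts. RNA of crude mitochondria from hearts of C57BL/6N mice aged 3 to 4 weeks was sequenced in 6 libraries, with 3 mice per group by the design text. The knockout group comprised 3 mice with both Polrmt alleles loxP-flanked at exon 3 and cre driven by the muscle creatine kinase promoter (creatinine in the labels), titled L/L, cre and given the genotype Polrmt -/-. The control group comprised 3 mice titled L/L, without cre, for which the genotype field reads Polrmt +/+. The product of Polrmt is the polymerase that transcribes mtDNA, and the comparison asks how the transcripts change when it is removed. The creatine kinase promoter acts in heart and skeletal muscle fibres, so heart cells of other types keep the gene. The RNA is of a crude mitochondrial fraction from mixed cells, in which fewer cells of a type and less RNA per cell cannot be told apart.

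Complex I, the NADH dehydrogenase of the respiratory chain, passes electrons from NADH to ubiquinone and pumps protons across the inner membrane. Its membrane arm holds subunits made inside mitochondria from mtDNA, while the remaining subunits are encoded in the nucleus and imported. The heavy-strand promoter gives 1 long transcript, from which tRNAs are excised to release the mRNAs, so the mRNAs described here share a promoter with the mtDNA mRNAs of complexes III, IV and V. mt-Nd6, the remaining mtDNA-encoded subunit of complex I, is transcribed from the opposite strand. The heart is rich in mitochondria and depends on this chain for most of its ATP.

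The genes lie in 2 stretches of the mtDNA (GRCm38, annotation GENCODE M21), and all are on the plus strand of the reference. mt-Nd1 (chrM:2751-3707) follows the large rRNA gene and 1 tRNA, and mt-Nd2 (chrM:3914-4951) lies beyond the next tRNA genes. mt-Nd3 (chrM:9459-9806) lies between mt-Co3 and mt-Nd4l, with 1 tRNA gene on either side. mt-Nd4l (chrM:9877-10173), mt-Nd4 (chrM:10167-11544) and mt-Nd5 (chrM:11742-13565) close the row. Each gene is 1 exon with no intron. The first 30 bases of each gene are given from the GENCODE transcripts, with the start codon in capitals. The annotated genes begin at the coding sequence, so these bases do not show whether a leader precedes it in the RNA. Only the mt-Nd4l and mt-Nd4 genes begin with ATG.
mt-Nd1: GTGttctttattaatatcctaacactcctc
mt-Nd2: ATAaatcctatcacccttgccatcatctac
mt-Nd3: ATTaacctgtacactgttatcttcattaat
mt-Nd4l: ATGccatctaccttcttcaacctcaccata
mt-Nd4: ATGctaaaaattattcttccctcactaatg
mt-Nd5: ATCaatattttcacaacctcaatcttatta

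The row mt-Nd4l_4 joins mt-Nd4l and mt-Nd4, whose coding sequences overlap by 7 bases on one mRNA. The window chrM:10154-10186 (plus strand) shows the overlap in capitals, which opens with the start codon of mt-Nd4 and holds the stop codon of mt-Nd4l.
mt-Nd4l/mt-Nd4: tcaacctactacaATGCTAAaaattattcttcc
The 3′ end of mt-Nd5 overlaps that of mt-Nd6, on the other strand, by 14 bases, which are in capitals in the window chrM:13536-13565 (plus strand).
mt-Nd5/mt-Nd6: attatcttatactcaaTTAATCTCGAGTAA
No source used here states the strand setting of the counting, so reads of the light strand that lie within these genes may be included in their counts. Likewise, heavy-strand reads that lie within mt-Nd6 may be included in its counts, wherever it is compared below. mt-Nd4 ends on a single T after its last whole codon, 1 base of a stop codon that polyadenylation completes in mammalian mitochondria. GC content was between 33.1% in mt-Nd3 and 41.1% in mt-Nd4l, and lengths were between 297 bases for mt-Nd4l and 1824 bases for mt-Nd5.

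Depth differed between the groups, with gene-assigned totals of 1062030 to 1227997 counts in knockout libraries and 2867067 to 3234729 in control libraries. Polrmt itself had 2, 5 and 1 counts in knockout libraries and 3, 2 and 1 in control libraries, too few to check the deletion, and gene-level counts do not resolve exon 3. Heart muscle markers were present, with counts for 10 of 10 listed cardiomyocyte genes and summed levels of 7647 to 8305 CPM in knockout and 7832 to 10055 CPM in control libraries. CPM are counts relative to the library size after TMM scaling, which sets the bulk of transcripts, most of them nuclear, to no change. Markers of other cells were also detected, 8 of 8 for macrophages (17.4 to 23.6 CPM summed in knockout and 49.6 to 68.7 CPM in control libraries) and 6 of 6 for smooth muscle and pericytes (65.9 to 100.2 CPM in knockout and 119 to 139 CPM in control libraries). Fibroblast markers, 8 of 8 with counts, summed to 592 to 667 CPM in knockout and 697 to 753 CPM in control libraries. Endothelial markers, 8 of 8 with counts, summed to 114 to 136 CPM in knockout and 159 to 181 CPM in control libraries. Erythroid markers, 5 of 5 with counts, overlapped between knockout (57.7 to 106 CPM) and control libraries (56.3 to 123 CPM). Of the tested markers, 3 of 3 for macrophages, 2 of 4 for smooth muscle, 2 of 8 for fibroblasts, 1 of 8 for endothelium and 4 of 10 for cardiomyocytes were called lower, 1 of 10 for cardiomyocytes higher, and no erythroid marker either way (edgeR), against 6.78% of all genes tested called lower and 6.66% higher. DESeq2 called 2 macrophage, 1 smooth muscle, 1 fibroblast, 0 endothelial and 3 cardiomyocyte markers lower, 1 cardiomyocyte marker higher and 0 erythroid markers, against 2.17% of all genes lower and 2.65% higher. None of the listed cell markers was at 0. The part of these cell types in the results below was not tested.

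All 5 complex I values fell in crude mitochondria of knockout hearts relative to nuclear transcripts, by 30.4-fold to 41.7-fold. In such RNA the nuclear transcripts are those carried along with the mitochondria. Whether their amount differed between preparations was not tested, here or for the other values set against nuclear transcripts. Together the 5 complex I values held 0.618%, 0.611% and 0.784% of all counts in the knockout libraries, against 5.41%, 5.53% and 5.42% in the control libraries. Counting error was small beside these values, with a 95% Clopper-Pearson interval from 0.769% to 0.7998% in knockout 3 and from 5.39% to 5.44% in control 3. The mean was 0.671% ± 0.0978 in knockouts and 5.45% ± 0.0690 in controls (SD, n = 3 each), a difference larger than the spread, with an exact permutation p of 0.1 (2-sided), the smallest that 3 against 3 can give. Knockout 3 had the highest share in its group, and its mtDNA share of 25.8% was also above those of knockouts 1 and 2, at 21.1% and 21.4%.

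mt-Nd1 encodes a core subunit at the foot of the membrane arm, next to the ubiquinone site. It had 1477, 1375 and 1980 counts in knockout libraries and 30896, 37739 and 27530 counts in control libraries. At 689 ± 82.6 CPM in knockouts and 21940.4 ± 4648 CPM in controls (SD, n = 3 each), it fell 31.8-fold (-4.99 ± 0.22 SE on the log2 scale, edgeR quasi-likelihood test, adjusted p = 5.04e-57). No knockout library came near a control library.

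mt-Nd2, mt-Nd4 and mt-Nd5 encode the antiporter-like subunits, which form the proton channels of the membrane arm. mt-Nd2 had 1058, 998 and 1485 counts in knockout libraries, against 30866, 32018 and 28744 in control libraries. Its fall of 41.7-fold, to 504 ± 67.1 CPM in knockouts against 21012 ± 4329 CPM in controls (SD, n = 3 each), was the largest of the 10 heavy-strand mRNA values (-5.38 ± 0.22 SE on the log2 scale, edgeR adjusted p = 2.75e-60). The row mt-Nd4l_4, which adds the small subunit of mt-Nd4l to mt-Nd4, had 1860, 1902 and 2687 counts in knockout libraries and 49430, 50915 and 47267 in control libraries. It fell 36.9-fold (-5.21 ± 0.23 SE on the log2 scale, edgeR adjusted p = 1.93e-57). mt-Nd5, at the far end of the membrane arm, had 2059, 2298 and 3284 counts in knockout libraries, against 49527, 55759 and 49670 in control libraries. It fell 32.7-fold (-5.03 ± 0.22 SE on the log2 scale, edgeR adjusted p = 3.94e-56). For all of these rows knockout 3 had the most counts of its group, and the groups lay far apart.

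mt-Nd3 encodes a small subunit with a loop that changes conformation between the active and the resting enzyme. It was counted least, with 114, 92 and 192 counts in knockout libraries and 2747, 2581 and 2056 in control libraries. It fell 30.4-fold, to 56.1 ± 16.7 CPM in knockouts against 1713 ± 536 CPM in controls (SD, n = 3 each; -4.92 ± 0.22 SE on the log2 scale, edgeR adjusted p = 4.54e-22). Its SD in knockouts was the largest of the 5 relative to the mean, with knockout 3 well above knockouts 1 and 2.

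Of the complex I values 5 of 5 were called lower at an adjusted p under 0.05, against 6.78% of all 3363 genes tested (6.66% were called higher and 13.4% either way). DESeq2 also called 5 of 5 lower, against 2.17% of all genes lower, 2.65% higher and 4.82% either way. The CPM of the groups did not overlap for 5 of 5, against 29.3% of all genes. Without scaling beyond library size, the median log2 fold change of all genes moved to 2.06, and the complex I values still fell, between -3.27 for mt-Nd2 and -2.80 for mt-Nd3, or -5.33 and -4.86 relative to that median. The SEs of the 5 log2 fold changes exceed most of the differences between them, so differences among the mRNAs are compared within mtDNA below.

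**Figure D1:**
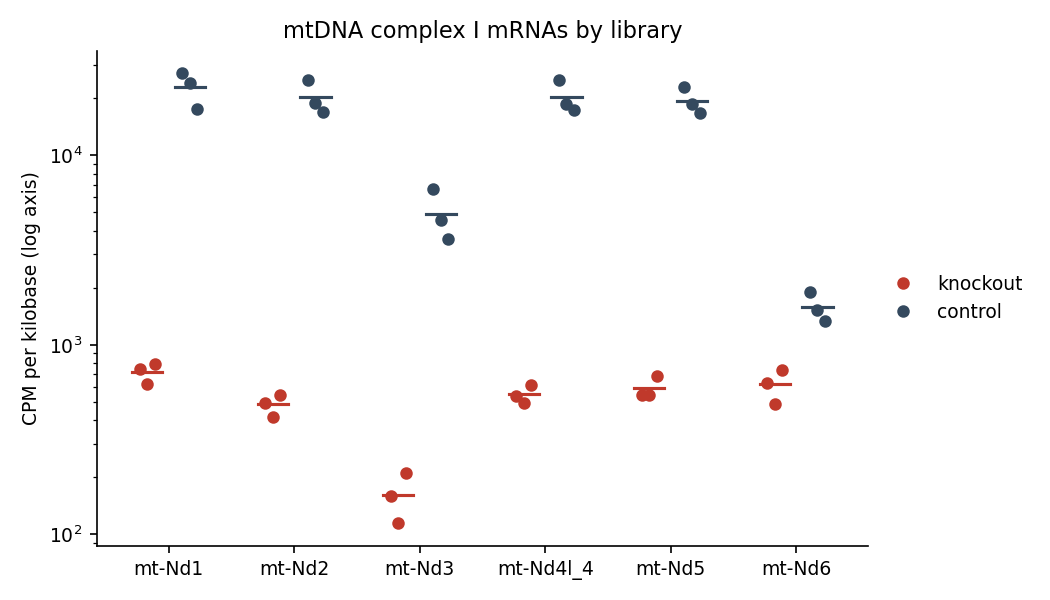
CPM per kilobase of gene on a log axis for the 5 heavy-strand complex I values and mt-Nd6, with 1 point per library and a bar at the mean of 3. Knockout libraries lie between 115 and 789 for the 5 values and control libraries between 3610 and 27058, while mt-Nd6 in knockouts lies among the longer heavy-strand mRNAs.

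Per kilobase of gene, the order of levels was mt-Nd1, mt-Nd5, mt-Nd4l_4, mt-Nd2 and mt-Nd3 in knockouts, and mt-Nd1, mt-Nd4l_4, mt-Nd2, mt-Nd5 and mt-Nd3 in controls. In knockouts mt-Nd1 stood at 719.7 ± 86.3 CPM per kilobase, mt-Nd5 at 593 ± 80.7, mt-Nd4l_4 at 549.5 ± 60.4, mt-Nd2 at 485 ± 64.6 and mt-Nd3 at 161 ± 47.9 (SD, n = 3). In controls mt-Nd1 stood at 22926 ± 4857, mt-Nd4l_4 at 20280.0 ± 4006, mt-Nd2 at 20242 ± 4170.4, mt-Nd5 at 19371 ± 3112 and mt-Nd3 at 4922 ± 1539 CPM per kilobase (SD, n = 3). In both groups the ranges of neighbours among the first 4 overlapped, and only mt-Nd3 stood below the next value without overlap. Within each library, mt-Nd1 was above the next value in 3 of 3 libraries of either group, whereas mt-Nd4l_4 was above mt-Nd2 in 1 of 3 controls and in 3 of 3 knockouts. The low level of mt-Nd3 is that of raw counts over its 348 bases, and whether so short a gene loses reads in counting was not tested.

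In knockouts mt-Nd6 reached 618 ± 126 CPM per kilobase, within the range of the longer heavy-strand values, against 1585 ± 288 CPM per kilobase in controls (SD, n = 3 each). It fell 2.56-fold relative to nuclear transcripts (-1.36 ± 0.15 SE on the log2 scale, edgeR adjusted p = 6.61e-14). With library size alone, where the median of all genes moved to 2.06, its log2 fold change was 0.75, or -1.31 relative to that median.

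**Figure D2:**
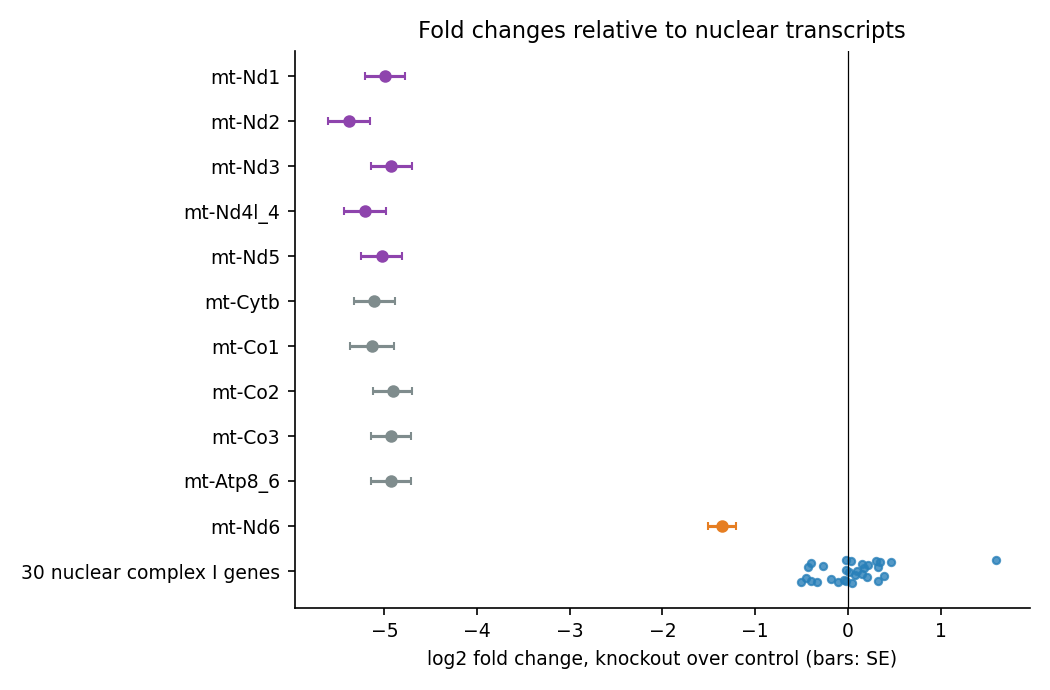
Log2 fold change of knockout over control relative to nuclear transcripts, with SE bars, for the 5 heavy-strand complex I values (purple), the 5 mtDNA mRNA values of complexes III, IV and V (grey), mt-Nd6 (orange) and 30 nuclear complex I genes (blue, no bars). The heavy-strand mRNAs lie between -5.38 and -4.91, and the nuclear complex I genes between -0.51 and 1.60.

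Summed over all 5 values, the complex I mRNAs showed no detectable difference in their fall from the summed mRNAs of the other complexes on the same transcript, while single mRNAs differed, as given further on. The 5 values for complexes III, IV and V fell by 30.1-fold (mt-Co2) to 35.1-fold (mt-Co1). The log2 ratio of summed complex I counts to summed counts of complexes III, IV and V was -0.68, -0.69 and -0.56 in knockout libraries and -0.59, -0.51 and -0.62 in control libraries. The groups overlapped, and the difference of -0.07 was within the spread (means -0.64 ± 0.07 in knockouts and -0.58 ± 0.06 in controls, SD, n = 3 each; exact permutation p = 0.3, also 0.3 when adjusted over the 3 ratios compared). Complex I thus held 39.0% ± 1.15 of heavy-strand mRNA counts in knockouts and 40.2% ± 0.995 in controls (SD, n = 3 each).

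Against mt-Nd6 and against the nuclear subunits the ratio was lower in knockouts by far more than the spread between libraries. The 5 heavy-strand values together had 10.3 ± 1.01 counts for each count of mt-Nd6 in knockouts and 138 ± 1.13 in controls (SD, n = 3 each). As log2 ratios these were 3.29, 3.51 and 3.26 in knockout libraries and 7.12, 7.12 and 7.10 in control libraries, a difference of -3.76. For each count of the 36 nuclear complex I genes they had 7.83 ± 0.773 counts in knockouts and 283 ± 71.1 in controls (SD, n = 3 each). Those log2 ratios were 2.94, 2.84 and 3.12 in knockout libraries and 8.45, 8.18 and 7.70 in control libraries, a difference of -5.15. Neither ratio overlapped between groups (exact permutation p = 0.1 for each, the smallest possible, and 0.15 when adjusted over the 3 ratios).

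**Figure D3:**
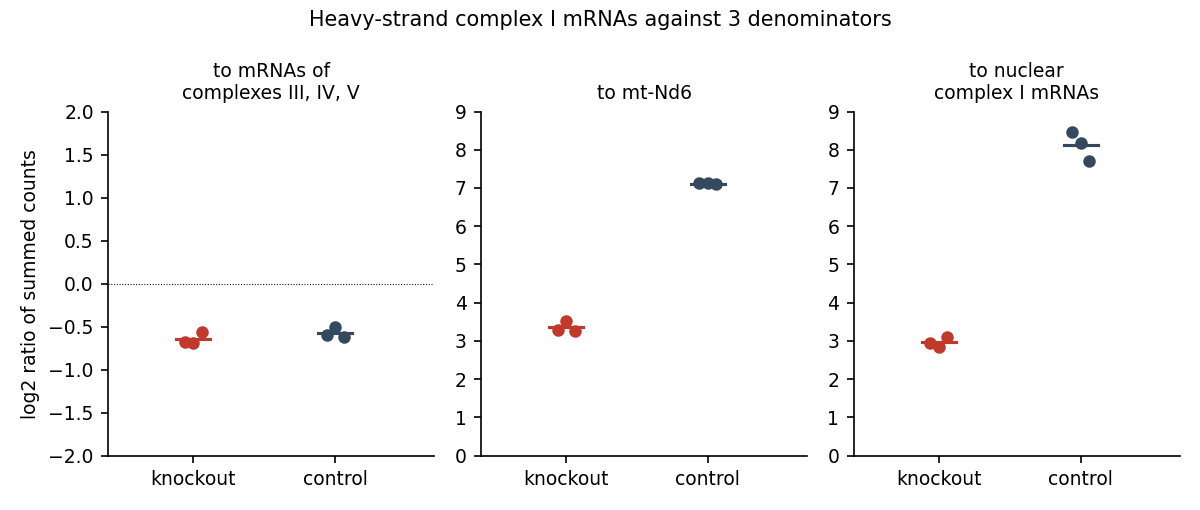
Log2 ratio of the summed counts of the 5 heavy-strand complex I values to those of the mtDNA mRNAs of complexes III, IV and V, to mt-Nd6 and to 36 nuclear complex I genes, with 1 point per library and a bar at the mean of 3. The groups overlap in the first panel only, and the knockouts differ from the controls by -3.76 and -5.15 in the others.

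Among the heavy-strand mRNAs, mt-Nd2 and mt-Nd4l_4 took a smaller share in knockouts. The share of mt-Nd2 was 6.18%, 5.74% and 6.22% of heavy-strand mRNA counts in knockout libraries and 7.53%, 7.38% and 7.28% in control libraries. It fell 1.22-fold (-0.29 ± 0.05 SE on the log2 scale, edgeR adjusted p = 4.37e-04; DESeq2 adjusted p = 1.27e-08), and its adjusted p stayed between 1.08e-05 and 0.00398 with each library left out. The share of mt-Nd4l_4 was 10.9%, 10.9% and 11.3% in knockout libraries and 12.1%, 11.7% and 11.98% in control libraries. It fell 1.08-fold (-0.11 ± 0.03 SE on the log2 scale, edgeR adjusted p = 0.00422; DESeq2 adjusted p = 0.00288). The call, though not the size, was lost without control 1 (-0.105, adjusted p = 0.0770), knockout 1 (-0.103, adjusted p = 0.0639) or knockout 2 (-0.107, adjusted p = 0.0641). Neither share overlapped between groups.

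The shares of mt-Nd1, mt-Nd3 and mt-Nd5 overlapped between the groups. mt-Nd1 held 8.63%, 7.90% and 8.30% in knockout libraries and 7.53%, 8.699% and 6.98% in control libraries, with control 2 above every knockout (0.10 ± 0.10 SE on the log2 scale, edgeR adjusted p = 0.444). Without control 2 it was called higher, at 0.19 on the log2 scale (adjusted p = 0.0103). mt-Nd3 held 0.666%, 0.529% and 0.805% in knockout libraries and 0.6698%, 0.595% and 0.521% in control libraries (0.18 ± 0.18 SE on the log2 scale, edgeR adjusted p = 0.444). The value for mt-Nd3 was 0.0046 without knockout 3 and 0.32 without knockout 2, and no library left out gave a call. mt-Nd5 held 12.04%, 13.2% and 13.8% in knockout libraries and 12.1%, 12.9% and 12.6% in control libraries (0.06 ± 0.05 SE on the log2 scale, edgeR adjusted p = 0.444), and it was called higher without knockout 1, at 0.11 on the log2 scale (adjusted p = 0.00873).

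Thus 2 of the 5 complex I values were called lower, against 11.8% of the 17 mtDNA values tested (35.3% were called higher and 47.1% either way, by edgeR). That 11.8% consists of the same 2 values, so it is no independent background. With DESeq2 the complex I values called lower were also 2 of 5, against 17.6% of the 17 lower, 41.2% higher and 58.8% either way. Of the 5 complex I values 0 were called higher, by edgeR, by its unadjusted p or by DESeq2. Shares did not overlap in 58.8% of the 17 values and in 2 of the 5 described here, which is no more than that background. mt-Co2, mt-Co3 and mt-Atp8_6, which lie between mt-Nd2 and mt-Nd3, took larger shares in knockouts, with log2 fold changes of 0.18, 0.17 and 0.17 (edgeR adjusted p = 6.76e-04, 8.03e-04 and 0.0085). Their direction turned when the sum of all mtDNA counts was the denominator. mt-Co1, which also lies between mt-Nd2 and mt-Nd3, was not called (-0.04 ± 0.05 SE on the log2 scale, edgeR adjusted p = 0.514), and its shares overlapped between groups. The call of mt-Atp8_6 was lost without knockout 1 (0.16, adjusted p = 0.0639) or knockout 3 (0.17, adjusted p = 0.0596). It was also lost against the sum of 11 mtDNA mRNA values (0.12, adjusted p = 0.0571) or of the mRNAs of complexes III, IV and V (0.14, adjusted p = 0.0872). A share among 10 values falls when another rises, so these sizes are relative to the heavy-strand sum.

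**Figure D4:**
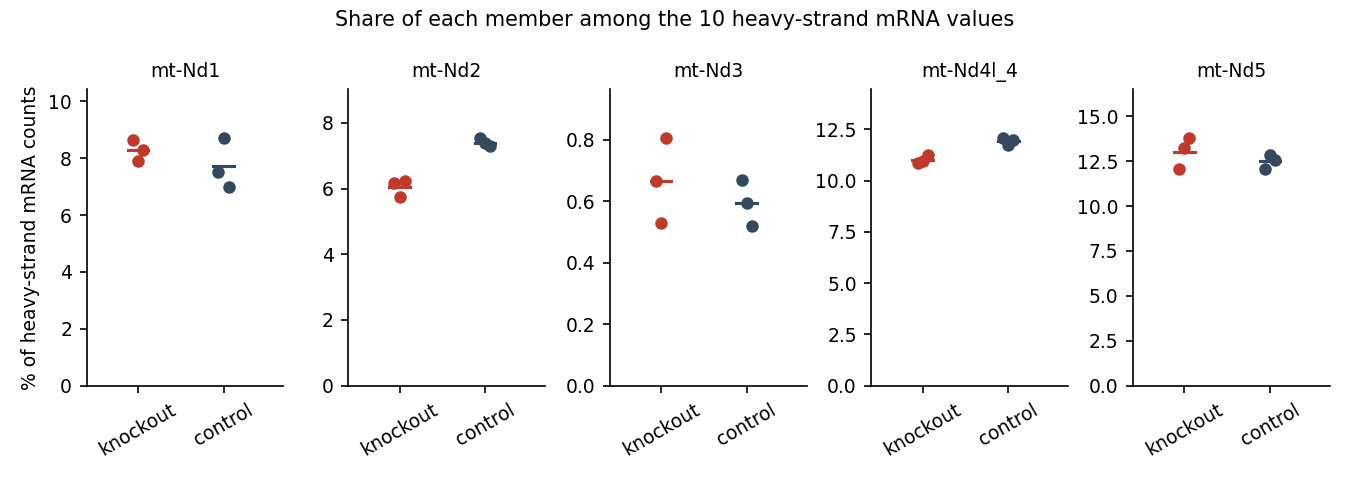
Share of each complex I value in the counts of the 10 heavy-strand mRNA values, in percent, with 1 point per library and a bar at the mean of 3. For mt-Nd2 (means 6.05% in knockouts and 7.40% in controls) and mt-Nd4l_4 (11.02% in knockouts and 11.9% in controls) the groups do not overlap, and for the others they do.

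Ratios between the complex I mRNAs of 1 library need no scaling at all, and 10 pairs were compared. Of these, 5 did not overlap between groups, and 4 of the 5 involve mt-Nd2, so those 4 are not independent of each other. Pairs among the other heavy-strand mRNAs were not counted, so whether 5 of 10 is particular to complex I was not tested. The log2 ratio of mt-Nd1 to mt-Nd2, which neighbour each other, was 0.48, 0.46 and 0.42 in knockout libraries and 0.0014, 0.24 and -0.06 in control libraries. The ratio was 1.31-fold higher in knockouts, with means of 0.45 ± 0.03 in knockouts and 0.06 ± 0.16 in controls (SD, n = 3 each; exact permutation p = 0.1, and 0.2 when adjusted over the 10 pairs). The log2 ratio of mt-Nd2 to mt-Nd5 differed by -0.35, that of mt-Nd2 to mt-Nd3 by -0.44 and that of mt-Nd2 to mt-Nd4l_4 by -0.18, knockout minus control (exact permutation p = 0.1 each, adjusted 0.2). The ratio of mt-Nd4l_4 to mt-Nd5, which are neighbours with tRNA genes between them, was -0.24 ± 0.08 in knockouts and -0.07 ± 0.06 in controls (log2, SD, n = 3 each; exact permutation p = 0.1, adjusted 0.2). None of the 10 can pass a threshold of 0.05 with 3 against 3.

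Ratios across gene borders to mRNAs of other complexes were also taken, after the values were seen. The log2 ratio of mt-Nd3 to its upstream neighbour mt-Co3 was -3.15 ± 0.28 in knockouts and -3.13 ± 0.13 in controls (SD, n = 3 each), a difference within the spread (exact permutation p = 0.9). mt-Nd2 to its downstream neighbour mt-Co1 was -2.33 ± 0.13 in knockouts and -2.08 ± 0.05 in controls (SD, n = 3 each; exact permutation p = 0.1, adjusted over 4 such ratios 0.2). mt-Nd5 to its downstream mRNA neighbour mt-Cytb was 0.12 ± 0.08 in knockouts and 0.05 ± 0.07 in controls (SD, n = 3 each; exact permutation p = 0.2). mt-Nd1 to the large rRNA upstream of it, mt-Rnr2, was -6.76 ± 0.08 in knockouts and -5.45 ± 0.12 in controls (SD, n = 3 each; exact permutation p = 0.1, adjusted 0.2), a difference of -1.31 with no overlap between groups. This difference is not particular to that border. Relative to nuclear transcripts mt-Rnr2 fell 12.9-fold, against 30.1-fold (mt-Co2) to 41.7-fold (mt-Nd2) for the 10 heavy-strand mRNA values.

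The genes whose pattern over the 6 libraries was most like that of the complex I values were all mtDNA mRNAs of the same strand. The measure was the root mean square difference of centred log2 CPM from the mean profile of the 5 values, which was between 0.07 and 0.17 for those values themselves. mt-Cytb was the closest at 0.06, followed by mt-Co3 at 0.10 and mt-Co2, mt-Co1 and mt-Atp8_6 at 0.11 each. The nearest nuclear genes were Gm13340 at 0.41 and Gm10222 at 0.78, followed by Trabd2b at 1.65. Gm10222 is a nuclear copy of a complex I gene, and Gm13340 is a predicted gene annotated in the nuclear genome. The search for copies given below covered the complex I genes alone, so whether Gm13340 is a copy of another mtDNA gene was not tested.

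Nuclear copies of mtDNA can take or give reads, and no source used here states how reads with several alignments were treated. A search of the annotated transcripts found 6 copies of these genes at 90% identity or more over at least 100 bases, of which 4 were analysed here. The 4 together held 19 counts in knockout libraries and 239 in control libraries, or 0.0831% of the complex I counts in knockouts and 0.0480% in controls. Gm10222 (chromosome 1, 24612407 to 24612700, minus strand), identical to mt-Nd4l over 294 bases, had 15 counts in knockouts and 179 in controls (-4.20 ± 0.29 SE on the log2 scale, edgeR adjusted p = 2.97e-28). Gm13339, on chromosome 2 with 96.7% identity to mt-Nd2 over 510 bases, had 3, 0 and 1 counts in knockout libraries and 12, 20 and 10 in control libraries. The copy of mt-Nd3, Gm28438 (not analysed here), lies beside Gm10222 on chromosome 1 and differs from mt-Nd3 over 345 bases by the substitution T3C, counted from 1 at the first base of mt-Nd3. The windows below (chrM:9459-9475, plus strand, and chr1:24613103-24613119, minus strand) show that base in capitals, since over those 345 bases it is the one base by which a read of mt-Nd3 could be told from its copy.
mt-Nd3: atTaacctgtacactgt
Gm28438: atCaacctgtacactgt

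Of the nuclear-encoded subunits of complex I, 1 was called changed. Of 37 listed subunits, 36 were analysed here and 30 passed the filter on low counts, of which 1 was called higher and 0 lower, against 6.66% of all tested genes higher and 6.78% lower (edgeR; DESeq2 called 0 either way, and 2 of the 30 had an unadjusted p under 0.05). The median log2 fold change of the 30 was 0.04, beside 0.004 over all genes tested. Their summed level was 405 to 423 CPM in knockout and 377 to 455 CPM in control libraries.

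Ndufa2, a small accessory subunit of the matrix arm, had 10, 15 and 14 counts in knockout libraries and 2, 3 and 3 counts in control libraries. It rose 3.04-fold (1.60 ± 0.48 SE on the log2 scale, edgeR adjusted p = 0.0128), but DESeq2 did not call it (adjusted p = 0.232), and leaving out single libraries gave adjusted p between 0.0476 and 0.0871. Of the core subunits, Ndufs1, which carries iron-sulphur clusters, had a log2 fold change of -0.04 ± 0.16 SE (adjusted p = 0.914), and Ndufv1, the NADH-binding subunit, one of -0.02 ± 0.18 SE (adjusted p = 0.970). With library size alone as the scaling, all 30 were called higher, as were 3325 of all 3363 genes tested. The values are thus relative to other nuclear transcripts.

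Of 17 assembly factors of complex I, 16 were analysed here and 3 passed the filter, with 0 called and 1 at an unadjusted p under 0.05 (edgeR; 0 with DESeq2). That one was Ndufaf1, an assembly factor of the membrane arm, with 6, 14 and 10 counts in knockout libraries and 3, 2 and 4 in control libraries (1.06 ± 0.48 SE on the log2 scale, adjusted p = 0.157). Of 19 factors of mtDNA transcription, replication and mRNA stability, 3 passed the filter and 0 were called, with 0 at an unadjusted p under 0.05 and 0 with DESeq2. Lrpprc, which binds and stabilises heavy-strand mRNAs, had 56, 54 and 71 counts in knockout libraries and 34, 27 and 41 in control libraries (0.17 ± 0.20 SE on the log2 scale, edgeR adjusted p = 0.671). Ndufs1, Ndufv1, Ndufaf1 and Lrpprc were named after their values were seen. At these depths most genes of both lists were too low to be tested.

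The authors' deposited table gives mt-Nd3 the largest fall of all 6319 genes it lists, a log2 fold change of -7.63, while the raw counts give -4.92. The header of that table does not state the direction of its fold changes, and its negative values go with mRNAs that are lower in knockouts by raw counts. For the other complex I values the authors' deposited table and the raw counts lie close, at -4.92 and -4.99 for mt-Nd1, -5.36 and -5.38 for mt-Nd2, -5.16 and -5.21 for mt-Nd4l_4, and -4.97 and -5.03 for mt-Nd5. The second set of deposited files, the authors' normalised values, shows where mt-Nd3 departs. Its normalised values were 87, 70 and 94 in knockout libraries, which is 0.763, 0.761 and 0.4896 of the raw counts. In control libraries they were 17627, 18067 and 14392, which is 6.42, 7.0 and 7.0 times the raw counts. The same ratio for the other 4 values lay between 0.544 and 0.862 in knockouts and between 0.945 and 1.34 in controls.

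The normalised value over the raw count thus shifted by -3.37 on the log2 scale between knockouts and controls for mt-Nd3. That was the lowest of 6319 genes, the next being -0.94 and the median -0.52. With these gene-specific factors used in the edgeR test of the raw counts, an alternative chosen after seeing the data, mt-Nd3 had a log2 fold change of -7.63. What sets the factors of mt-Nd3 apart was not tested. By raw counts mt-Nd3 fell least of the 5 values, though by less than the SE apart from mt-Nd1 and mt-Nd5, and by the authors' deposited table it fell most.

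**Figure D5:**
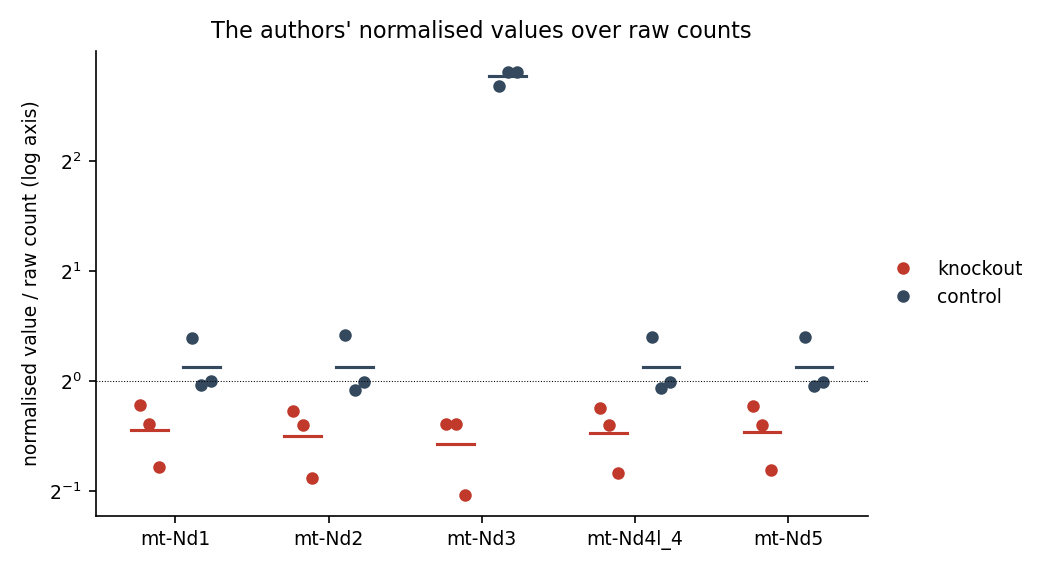
Ratio of the authors' normalised value to the raw count for each complex I value, on a log axis, with 1 point per library and a bar at the mean of 3. For mt-Nd3 the control libraries lie at 6.42 to 7.0, and for the other 4 values no control library lies above 1.34.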

How the data were processed

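RNA of crude heart mitochondria was isolated with the miRNeasy kit and made into Illumina TruSeq libraries, read in pairs on a MiSeq, per the labels' protocols. The submitters' processing notes name HISAT 0.1.6, featureCounts 1.3.5-p4, R 3.2.0, edgeR 3.11.2 and the build GRCm38. The deposited raw counts are whole numbers per gene. The authors' normalised values, rounded and of unstated method, are treated as a score. The authors' deposited table holds, per the file headers, log2 fold changes, average log2 CPM, a likelihood ratio score and p-values with false discovery rates.

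Raw counts were tested here with edgeR 4.0.16 (R 4.3.3, quasi-likelihood, robust, TMM scaling, filterByExpr with a minimum count of 10 and a total of 15), 2-sided, with Benjamini-Hochberg adjustment over all 3363 genes tested and a threshold of 0.05. SEs are those implied by the F statistic. The within-mtDNA fit set the library size to the sum of the 10 heavy-strand mRNA values and adjusted over 17 mtDNA values. DESeq2 1.42.0 was an alternative. Single values were compared by exact permutation (scipy 1.17.1), and copies were sought with blastn 2.17.0. The edgeR step was tested on simulated data. Intervals cover counting error only, since no molecular identifiers are stated. Replicates differed by more than sampling noise (chi-square per degree of freedom 1.30 to 6.26).

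The members and gene lists were chosen with earlier results of these data known. By rule, the genes named were the complex I values, the other mtDNA mRNAs, up to 6 called genes of each list, Polrmt, the nearest patterns and nuclear copies. Ndufs1, Ndufv1, Ndufaf1, Lrpprc and mt-Rnr2 are exceptions, named after their values were seen.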

Additional observations from a re-analysis of the deposited data

How the results depend on the processing

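The count of complex I values lower relative to nuclear transcripts was 5 under all 13 alternatives. Within the heavy-strand mRNAs 2 were lower, but 5 against the sum of all mtDNA counts, which include rRNA and tRNA. With that denominator 13 of the 17 mtDNA values tested were called lower and 2 higher, so the count of 5 is not particular to complex I. Against that sum mt-Nd1 had a log2 fold change of -1.04, mt-Nd3 -0.95, mt-Nd5 -1.08, mt-Co2 -0.96, mt-Co3 -0.97 and mt-Atp8_6 -0.97, all turned in direction. Leaving out single libraries gave 1 to 2 lower and 0 to 1 higher within the heavy-strand mRNAs. Of the 17 mtDNA values, 1 to 3 were then lower and 5 to 7 higher. Leaving out single libraries also moved mt-Co1 between -0.069 and 0.0066, the higher value without knockout 3. The replicate numbers share no stated pairing, and same-numbered deviations correlated between -0.02 and 0.02. With replicate number as a block in the within-mtDNA fit, 2 were lower and 1, mt-Nd5, was higher. Of the 17 mtDNA values tested there, 3 were lower and 8 higher. The same block in the fit relative to nuclear transcripts gave 212 genes higher and 217 lower of 3363.

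Of nuclear complex I subunits, DESeq2 and the fit without the low-count filter called 0 higher. No scaling called 30 higher, among 3325 of all 3363 genes. Single libraries left out gave 0 to 1 higher and 0 to 1 lower. mt-Nd6 had a log2 fold change of 0.75 with no scaling, which was -1.31 relative to the median of all genes. The difference in the share of counts, -4.78 points, was -4.52 without the 5 nuclear loci that collect most nuclear counts and -3.72 of mtDNA counts alone. The 3 log2 ratios moved by less than the larger group SD under all 7 alternatives each, though not always by less than the smaller. The difference for the ratio to nuclear subunits, -5.15, lay between -5.35 (without control 3) and -4.98 (without control 1). Over all genes, 224 were higher and 228 lower, against 89 and 73 with DESeq2, 3325 and 18 with no scaling, 196 and 117 without the filter, and 234 and 132 with the authors' factors. Single libraries left out gave 140 to 181 higher and 136 to 171 lower. Low counts limit the nuclear lists, and the causes of these shifts were not tested.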

Other observations

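If the authors' normalised values of mt-Nd3 are divided by the median factor of the other 4 complex I values in each library, they correspond to 120 ± 40.0 counts in knockouts and 15525 ± 2840 counts in controls (SD, n = 3 each), where the raw files hold 92 to 192 and 2056 to 2747. Per kilobase of gene this is 346 in knockouts and 44612 in controls. The raw counts per kilobase of the other 4 values lay between 1137 and 1683 in knockouts and between 28318 and 33495 in controls. On this scale mt-Nd3 in controls stood above the other complex I mRNAs, while in knockouts it stood below them, as it does in the raw counts of both groups (381 per kilobase in knockouts and 7073 in controls). The cause was not tested.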
